A study of Mus musculus with 10 samples.

Results

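Proline-specific peptidases are enzymes that cut peptide bonds next to proline, an amino acid whose ring shields neighbouring bonds from most other proteases. The 10 genes described here are Dpp4, Fap, Dpp6, Dpp7, Dpp8, Dpp9, Dpp10, Prep, Prcp and Pepd. They were taken from a fixed list of symbols out of 19938 genes with a probe set annotated to that gene alone, with the brightest probe set kept where a gene had several, and all 10 were measured. Their transcripts were compared in pancreatic islets, small groups of cells that release insulin and other hormones, of NZO/Hl mice, an obese and diabetes-prone inbred strain, and of C3HeB/FeJ mice, called NZO and C3H here. There were 5 arrays per strain. All mice were males of 6 weeks kept from weaning at day 21 on food in which fat supplied 45% of the calories. Isolated islets were left overnight in medium with 10 mM glucose before RNA was extracted, so each value describes islets after a night in culture and not islets taken directly from the animal. The study looked for genes of an interval from 30 to 46 Mb that differ between these strains in islets.

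DPP4 is a protease of the cell surface that removes an N-terminal dipeptide when the second residue is proline or alanine. It thereby inactivates the incretin hormones GLP-1 and GIP, which raise insulin secretion after a meal, and its inhibitors are used to treat type 2 diabetes. FAP is its closest relative and is best known from activated fibroblasts. DPP8 and DPP9 are cytosolic enzymes of the same family, and DPP7 works in intracellular vesicles. DPP6 and DPP10 have the same fold but lack enzyme activity, and serve as auxiliary subunits of Kv4 potassium channels. PREP cuts short peptides in the cytosol, PRCP removes C-terminal residues that follow a proline, and PEPD, or prolidase, splits dipeptides that end in proline.

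Sequences upstream of the genes are shown for the 3 members whose strains differed most clearly and which have a single annotated start. They come from RefSeq on the reference assembly GRCm38.p6, which is of the strain C57BL/6J and of neither strain measured here. Each line is the 250 bases before the start site, 5′ to 3′ on the strand of the gene, and capitals mark the motifs GGGCGG (bound by Sp1), TATAAA (bound by the general factor TBP), CCAAT (bound by NF-Y) and GTTAAT (one arm of the site of the factor HNF1), searched on both strands.
Dpp4, chr2:62412232-62412481, minus strand: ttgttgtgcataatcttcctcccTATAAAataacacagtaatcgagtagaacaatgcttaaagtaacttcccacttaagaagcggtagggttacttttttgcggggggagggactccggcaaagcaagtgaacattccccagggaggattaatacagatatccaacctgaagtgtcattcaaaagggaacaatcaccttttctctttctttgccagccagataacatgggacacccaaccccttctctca
Pepd, chr7:34912157-34912406, plus strand: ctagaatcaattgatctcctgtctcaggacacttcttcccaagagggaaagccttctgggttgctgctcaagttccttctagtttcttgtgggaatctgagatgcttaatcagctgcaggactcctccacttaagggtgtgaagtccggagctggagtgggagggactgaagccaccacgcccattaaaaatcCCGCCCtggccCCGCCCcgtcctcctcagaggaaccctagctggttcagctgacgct
Dpp10, chr1:124045560-124045809, minus strand: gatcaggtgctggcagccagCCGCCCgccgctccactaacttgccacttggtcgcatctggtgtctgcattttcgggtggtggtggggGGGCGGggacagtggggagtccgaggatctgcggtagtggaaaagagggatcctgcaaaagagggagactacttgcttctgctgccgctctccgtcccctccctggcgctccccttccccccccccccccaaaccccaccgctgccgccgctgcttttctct
The Dpp4 window held 4 CpG dinucleotides and 43.6% G and C, below each of the 9 windows of the other members in the table, which held 6 to 17 CpG and 53.6% to 65.2% G and C. Over all 32851 windows of the table the medians were 6 CpG and 52.4%. The Dpp4 window had a TATAAA 227 bases before the start site and no GGGCGG, whereas that of Pepd had a GGGCGG 57 and 46 bases before it, both on the opposite strand and so printed as its reverse complement. That of Dpp10 had one 230 bases before the start on the opposite strand and one 162 bases before it on the printed strand. GGGCGG was found in 7 of the 10 windows of members and in 32.7% of all windows, TATAAA in 2 and in 12.4%, CCAAT in 1 and in 33.8%, and GTTAAT in 0 and in 6.43%. These matches describe the letters of the reference and say nothing of what binds there.

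The islet label was checked against its defining hormones. Ins2, which encodes insulin, lay at 12.33 ± 0.07 in C3H and 12.45 ± 0.15 in NZO (log2 values with SD, 5 arrays each). Every value of Ins2, of the glucagon gene Gcg and of the somatostatin gene Sst lay above the 90th percentile of its array, which was between 9.91 and 10.1. The arrays also held RNA of the exocrine pancreas. The mean log2 value of 23 measured acinar genes, which mostly encode digestive enzymes, lay between 8.03 and 8.91 in C3H. In NZO it was 9.84 to 10.5 for replicates 1 to 3 but 11.8 for replicate 5 and 12.0 for replicate 4, the arrays whose titles do not carry a pair of animal numbers. All 23 acinar genes were higher in NZO. Each call below that ends without those arrays is therefore given without them too. The acinar mean was also used as a covariate. C3H replicate 4 had the lowest array weight of all (0.19), a measure in limma of how closely an array follows its group, and was the lowest C3H array for 7 of the 10 peptidases. Without it Dpp4 was 1.39, Pepd 0.45, Prcp 0.34, Dpp6 -0.63 and Dpp10 -1.12, of which only Prcp no longer passed. In bulk islets, fewer cells of a type and less RNA per cell cannot be told apart.

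Of the 10 peptidases, 3 were higher in NZO (Dpp4, Pepd and Prcp), 2 were lower (Dpp10 and Dpp6) and 5 did not pass the test (Fap, Dpp7, Dpp8, Dpp9 and Prep). The test was limma at a Benjamini-Hochberg adjusted p below 0.05 over all 19938 genes, of which 10.1% passed, 5.47% as higher and 4.61% as lower in NZO. For 4 of the 10 (Dpp4, Pepd, Dpp6 and Dpp10) no array of one strain reached into the range of the other, where 9.14% of all genes showed no overlap. The median log2 difference over the members was 0.03, and that over all genes was -0.02. Among genes above the median brightness, where Fap, Dpp6 and Dpp10 were not tested, 3 of the other 7 passed, against 17.2% of all such genes. Without NZO replicates 4 and 5, 4 of the 10 passed, against 5.54% of all genes. With the mean of fibroblast genes as a covariate 4 passed, against 6.31%, and with array weights 7 passed, against 20.7%. With the acinar mean as a covariate 1 passed, Dpp4, against 1.06% of all genes. That covariate multiplied the standard error of a gene by a median factor of 2.13.

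**Figure D1:**
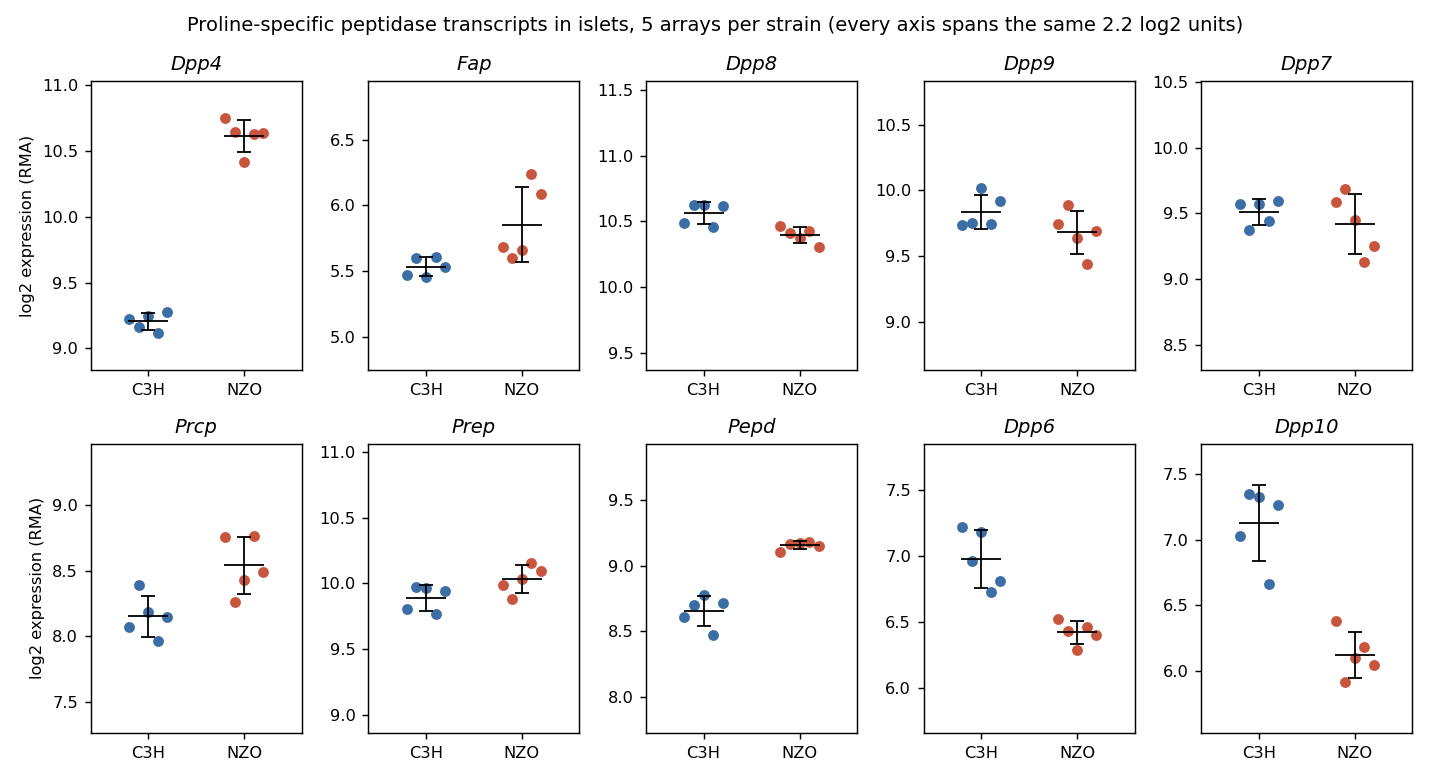
Log2 expression (RMA) of each of the 10 peptidases, with 1 point per array, C3H in blue and NZO in red, and black bars for the mean and SD of 5 arrays. All vertical axes have the same span. The strains are apart in Dpp4, Pepd, Dpp6 and Dpp10 and overlap in the other 6.

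Dpp4 had the largest difference of the 10. Its log2 values were 9.23, 9.16, 9.25, 9.12 and 9.28 on C3H replicates 1 to 5 and 10.75, 10.64, 10.42, 10.63 and 10.64 on NZO replicates 1 to 5. The lowest NZO array thus lay more than a full log2 unit above the highest C3H array, and the arrays of each strain were close together. The C3H mean was 9.21 ± 0.07 and the NZO mean 10.62 ± 0.12 (SD over 5 arrays), a 2.66-fold higher level in NZO (log2 difference 1.41, SE 0.08, 95% interval 1.25 to 1.58, limma adjusted p = 4.58e-08). Dpp4 had the 12th smallest p and the 67th largest positive difference of the 19938 genes. An exact two-sided permutation test of the array labels gave p = 0.00794, the smallest that the 252 splits of 10 arrays allow. Dpp4 was read by 1 probe set, as was each member but Dpp6, so no second probe set can be set beside it. Whether the sequences of the strains differ under the probes was not tested.

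Dpp4 kept its difference under each of the 20 other settings of the fit, from 1.34 to 1.46, with limma adjusted p values of 1.66e-09 to 0.000677. Some settings changed only the averaging of probe sets, the genes tested or the variance prior. These could not move the difference itself, as Dpp4 has 1 probe set, and bear only on its p-value. It was 1.40 (SE 0.10) without NZO replicates 4 and 5 and 1.41 (SE 0.17) with the acinar mean as a covariate. The acinar mean does not overlap between the strains, so that fit cannot fully separate acinar RNA from strain. Within NZO, Dpp4 was 10.64 and 10.63 on the arrays with the highest acinar means and 10.42 to 10.75 on the others.

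**Figure D2:**
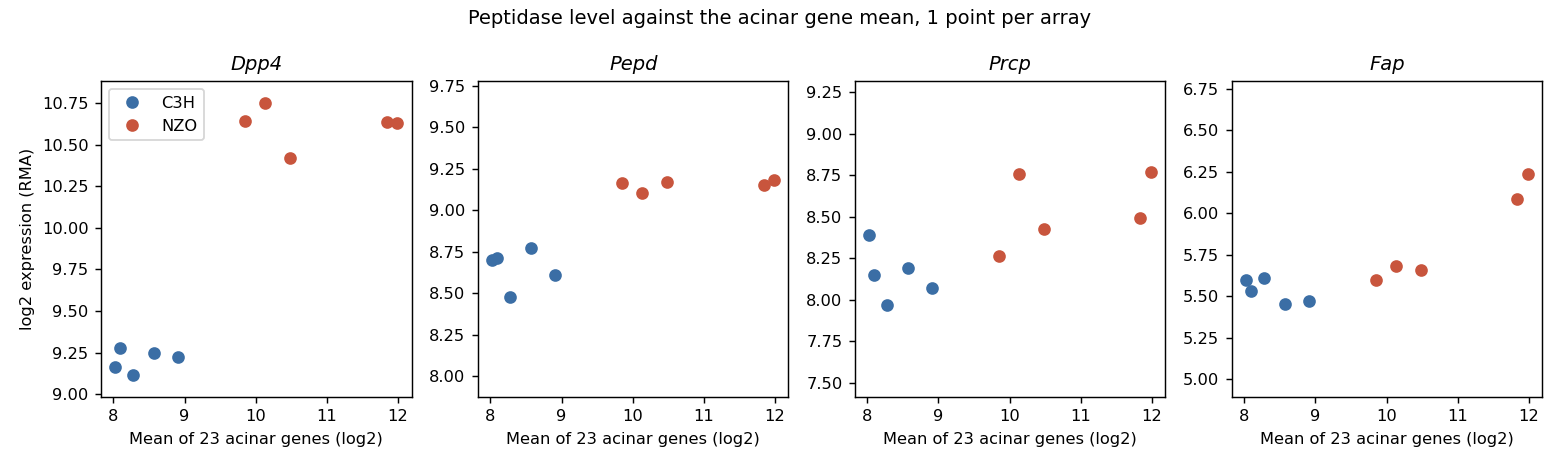
Log2 expression of Dpp4, Pepd, Prcp and Fap (vertical axes) against the mean log2 value of 23 acinar genes on the same array (horizontal axis), with 1 point per array, C3H in blue and NZO in red. Dpp4 stays between 10.42 and 10.75 and Pepd between 9.10 and 9.18 across the NZO arrays, while Fap is highest, at 6.08 and 6.24, where the acinar mean is highest.

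Fap, the gene most closely related to Dpp4, was dim. Its C3H values were 5.47, 5.60, 5.45, 5.61 and 5.53 and its NZO values 5.68, 5.60, 5.66, 6.24 and 6.08 on replicates 1 to 5. The 25th percentile of an array was 5.65 to 5.85, above each of the C3H values, so these may not exceed background and no fold is given. NZO replicates 4 and 5 were high, and the other NZO arrays lay close to C3H. The log2 difference of 0.32 (SE 0.12, 95% interval 0.07 to 0.57, limma adjusted p = 0.110) did not pass, although the exact permutation test of this gene alone gave p = 0.0159. It was 0.11 without NZO replicates 4 and 5 and -0.25 with the acinar mean as a covariate, neither of which passed. It passed without NZO replicate 2 (0.38, limma adjusted p = 0.0458) and with array weights (0.32, limma adjusted p = 0.0350).

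The fibroblast and stellate cell list, which marks the cells that FAP is known for, had a mean of 9.03 in NZO replicate 4 and 9.06 in NZO replicate 5. The remaining NZO means were 7.85 to 8.47, and those of C3H 8.03 to 8.33. Of its 13 genes 2 were higher in NZO and none lower. With the mean of that list as a covariate the Fap difference was 0.11 and did not pass.

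The log2 ratio of Dpp4 to Fap was 1.09 higher in NZO than in C3H (exact two-sided permutation p = 0.00794, Benjamini-Hochberg adjusted p = 0.0317 over the 4 related pairs tested). Since the C3H values of Fap may not exceed background, a change of Fap below that level would not be seen, and this ratio does not show how far the genes changed relative to each other. The other 3 pairs were Dpp10 with Dpp6, Prcp with Dpp7, and Dpp8 with Dpp9, and their values stand with those genes.

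Dpp4 and Fap lie on chromosome 2 with only Gcg between them among the genes tested. Gcg encodes proglucagon, the precursor of glucagon and of GLP-1, a substrate of DPP4. Gcg did not pass, at 13.25 ± 0.06 in C3H and 13.21 ± 0.12 in NZO (log2 difference -0.04, SE 0.08, 95% interval -0.21 to 0.12). It is among the brightest probe sets, where differences can be compressed. Of the 13 tested neighbours of Dpp4 and Fap, counted as 6 to each side of either gene, 3 passed, where 10.1% of all genes did. Ifih1, which encodes a sensor of viral RNA and follows Fap, was 1.56-fold higher in NZO (0.64, SE 0.08, limma adjusted p = 0.000100). Rbms1, at the far end, was higher (0.43, SE 0.13), but was 0.25 without NZO replicates 4 and 5, 0.18 with the fibroblast covariate and -0.13 with the acinar covariate, and passed in none of these. Grb14, an adaptor of the insulin receptor, was lower (-0.46, SE 0.10). With the acinar covariate Grb14 was -0.32 and did not pass (limma adjusted p = 0.947), while Ifih1 was 0.77 and passed (limma adjusted p = 0.0400).

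**Figure D3:**
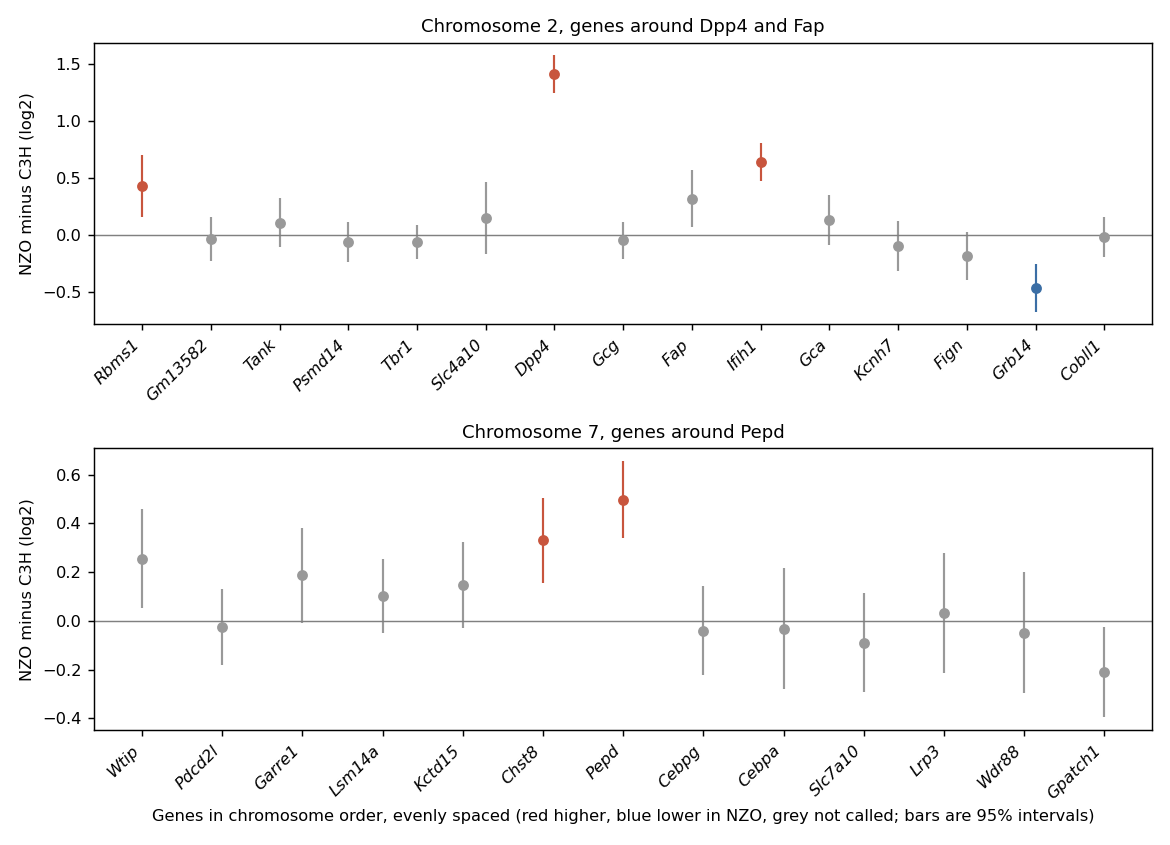
Log2 difference NZO minus C3H (vertical axis, limma estimate with its 95% interval) of the genes tested around Dpp4 and Fap on chromosome 2 and around Pepd on chromosome 7, evenly spaced in chromosome order, with called genes in red (higher) or blue (lower). Dpp4 stands at 1.41, while Gcg beside it is at -0.04.

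Pepd, the gene of prolidase, was higher in NZO. Its values were 8.61, 8.70, 8.77, 8.48 and 8.72 on C3H replicates 1 to 5 and 9.10, 9.17, 9.17, 9.18 and 9.15 on NZO replicates 1 to 5. The strains did not overlap, and the NZO arrays were nearly equal. The level was 1.41-fold higher (8.66 ± 0.12 against 9.15 ± 0.03, log2 difference 0.50, SE 0.07, limma adjusted p = 0.000504). It was 0.49 without NZO replicates 4 and 5 (limma adjusted p = 0.00580). With the acinar mean as a covariate the value was 0.48 (SE 0.16), which no longer passed (limma adjusted p = 0.320).

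On the assembly GRCm38.p6, Pepd is the only member whose start lies at 30 to 46 Mb of chromosome 7. That the study's interval lies on chromosome 7 is knowledge of the study and not in its design text, and the assembly behind the interval is not given in the sources used here. Of 255 tested genes that start there, 32 passed, or 12.5%, against 10.1% of all genes. Among the 12 tested neighbours of Pepd, 6 on each side, 1 passed. This was Chst8, which encodes a sulfotransferase and is the gene next to Pepd on one side (0.33, SE 0.08, limma adjusted p = 0.0170). Chst8 no longer passed without NZO replicates 4 and 5 (0.33, limma adjusted p = 0.0770). The transcription factor genes Cebpg and Cebpa on the other side of Pepd differed by -0.04 and -0.03 and did not pass.

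Prcp, the gene of lysosomal prolylcarboxypeptidase, was higher in NZO by a smaller amount, and its call was not firm. Its values were 8.07, 8.39, 8.19, 7.97 and 8.15 in C3H and 8.75, 8.26, 8.43, 8.77 and 8.49 in NZO, replicates 1 to 5. C3H replicate 2 and NZO replicate 2 made the strains overlap. The level was 1.31-fold higher (log2 difference 0.39, SE 0.11, limma adjusted p = 0.0361), and the exact permutation test gave p = 0.0159. The call ended when C3H replicate 1 (limma adjusted p = 0.0935), 3 (0.0686), 4 (0.0587) or 5 (0.0755) or NZO replicate 1 (0.0787), 4 (0.0976) or 5 (0.0643) was left out, with values from 0.33 to 0.40. It also ended without NZO replicates 4 and 5 together (0.33, limma adjusted p = 0.198).

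Dpp7, which belongs to the same peptidase family as Prcp, did not pass. Its values were 9.57, 9.37, 9.58, 9.44 and 9.59 in C3H and 9.59, 9.68, 9.45, 9.13 and 9.25 in NZO. The lowest were NZO replicates 4 and 5, and the log2 difference was -0.09 (SE 0.10, 95% interval -0.31 to 0.13, limma adjusted p = 0.721). Without those arrays it was 0.06. The log2 ratio of Prcp to Dpp7 was 0.48 higher in NZO, which did not pass over the 4 pairs (exact permutation p = 0.0476, Benjamini-Hochberg adjusted p = 0.0635).

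The cytosolic enzymes had small differences that did not pass. Dpp8 lay between 10.46 and 10.63 in C3H and between 10.31 and 10.47 in NZO, with a log2 difference of -0.17 (SE 0.07, 95% interval -0.32 to -0.01, limma adjusted p = 0.180). The exact permutation test of Dpp8 alone gave p = 0.0159, and with array weights it passed at -0.20 (limma adjusted p = 0.0227). Dpp9 lay between 9.74 and 10.02 in C3H and between 9.44 and 9.89 in NZO, a log2 difference of -0.15 (SE 0.09, 95% interval -0.35 to 0.05, limma adjusted p = 0.391). The log2 ratio of Dpp8 to Dpp9 differed by -0.01 between the strains (exact permutation p = 0.921). Prep lay between 9.77 and 9.97 in C3H and between 9.88 and 10.16 in NZO, with a log2 difference of 0.14 (SE 0.08, 95% interval -0.02 to 0.31, limma adjusted p = 0.326). The intervals of Dpp9 and Prep thus reach no further than 0.35 log2 units from 0 on this scale.

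**Figure D4:**
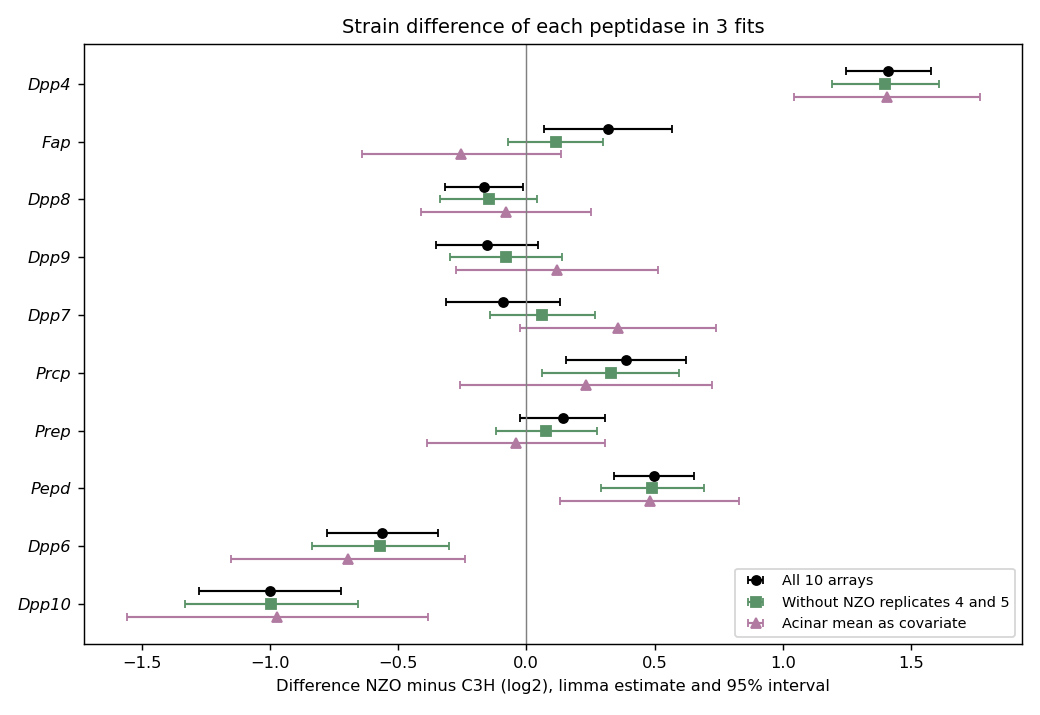
Log2 difference NZO minus C3H of each peptidase (limma estimate and 95% interval, horizontal axis) with all 10 arrays (circles), without NZO replicates 4 and 5 (squares) and with the acinar mean as a covariate (triangles). Dpp4 stays between 1.40 and 1.41 and Pepd between 0.48 and 0.50, while Fap goes from 0.32 to -0.25 and Dpp7 from -0.09 to 0.36.

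The members without enzyme activity, Dpp10 and Dpp6, were lower in NZO. Dpp10 was 7.03, 7.35, 7.32, 6.66 and 7.27 on C3H replicates 1 to 5 and 6.38, 5.91, 6.10, 6.19 and 6.05 on NZO replicates 1 to 5. The strains did not overlap, and C3H replicate 4 was the lowest of its strain. The level was lower by 1.999-fold (7.12 ± 0.29 against 6.13 ± 0.17, log2 difference -0.999, SE 0.13, limma adjusted p = 0.000165). It was -0.99 without NZO replicates 4 and 5 (limma adjusted p = 0.00156).

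Dpp6 was 7.22, 6.97, 7.18, 6.72 and 6.81 in C3H and 6.52, 6.43, 6.29, 6.46 and 6.40 in NZO, replicates 1 to 5. The strains did not overlap, with C3H replicates 4 and 5 nearest to NZO. The level was lower by 1.48-fold (6.98 ± 0.22 against 6.42 ± 0.09, log2 difference -0.56, SE 0.10, limma adjusted p = 0.00212). A second probe set named Dpp6 was dim, at 5.55 ± 0.19 and 5.44 ± 0.17, and differed by -0.10 (exact permutation p = 0.429). The mean of both probe sets differed by -0.33 (limma adjusted p = 0.00947).

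With the acinar mean as a covariate Dpp10 was -0.97 (SE 0.27, limma adjusted p = 0.163) and Dpp6 -0.70 (SE 0.21, limma adjusted p = 0.227), and neither passed. The log2 ratio of Dpp10 to Dpp6 differed by -0.44 in NZO against C3H (exact permutation p = 0.0238, Benjamini-Hochberg adjusted p = 0.0476 over the 4 pairs). Both probe sets lie in the dim part of the range, where RMA compresses differences.

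Kv4 channels, which DPP6 and DPP10 join, carry a rapidly inactivating potassium current and also bind KChIP calcium sensors. Of the 7 genes of this complex, 2 were higher in NZO, 1 was lower and 4 did not pass (median log2 difference -0.16). For this list and those below, the shares over all genes were 5.47% higher and 4.61% lower. Kcnd2, a pore-forming subunit, was lower in NZO by 1.28-fold (-0.36, SE 0.09, limma adjusted p = 0.0145), with values of 6.55 to 6.89 in C3H and 6.23 to 6.47 in NZO. It no longer passed without NZO replicates 4 and 5 (-0.35, limma adjusted p = 0.0902). Kcnip3, the KChIP3 gene, went the other way and was 5.47-fold higher in NZO. Its values were 7.10, 7.24, 6.88, 7.18 and 6.83 in C3H and 9.73, 9.78, 9.38, 9.35 and 9.24 in NZO (log2 difference 2.45, SE 0.12, limma adjusted p = 1.63e-08). The strains were far apart on every array, and Kcnip3 passed with the acinar mean as a covariate (2.93, SE 0.21). Kcnip1 was 1.47-fold higher (0.55, SE 0.15, limma adjusted p = 0.0310), with C3H at 9.26 to 9.86 and NZO at 9.73 to 10.59. With the acinar mean as a covariate it was 1.16 (SE 0.26), which did not pass (limma adjusted p = 0.0520).

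The peptides and chemokines that DPP4 is known to cut showed both directions. Of 16 such genes, 3 were higher in NZO, 3 were lower and 10 did not pass (median log2 difference -0.06). The 3 lower genes encode neuropeptides. Of the other neuropeptide genes of the list, Adcyap1 (-0.29, SE 0.09, limma adjusted p = 0.0511), Grp (-0.17, SE 0.16) and Ghrh (-0.08, SE 0.13) did not pass. Tac1, the precursor of substance P, lay at 7.69 to 9.29 in C3H and at 6.00 to 7.10 in NZO, a level lower by 4.07-fold (-2.03, SE 0.26, limma adjusted p = 0.000149). Vip, which encodes a vasodilator peptide of pancreatic nerves, lay at 7.59 to 9.20 and 6.37 to 7.36 and was lower by 2.76-fold (-1.46, SE 0.25, limma adjusted p = 0.00165). Npy, neuropeptide Y, was lower as well (-0.59, SE 0.13, limma adjusted p = 0.0103).

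The 3 higher genes were chemokines. Ccl5, which attracts T cells, was 1.49-fold higher in NZO (0.58, SE 0.09, limma adjusted p = 0.000860), with 7.13 to 7.47 in C3H and 7.67 to 8.05 in NZO. Cxcl12, which retains and attracts CXCR4-bearing cells, was 1.49-fold higher (0.58, SE 0.12). Its highest arrays were NZO replicates 4 and 5, at 7.40 and 6.96, and it was 0.39 without them (limma adjusted p = 0.0224). With the acinar mean as a covariate it was -0.0090 and did not pass. Cxcl10 (0.31, SE 0.09), which is induced by interferon, completes the count and was named after its value was seen. It did not pass without NZO replicates 4 and 5 (0.28, limma adjusted p = 0.193). The incretin Gip did not pass (-0.07, SE 0.13), nor did Pyy (-0.39, SE 0.14, limma adjusted p = 0.109), which lay among the brightest probe sets.

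Of 11 genes for receptors of these peptides, none was higher and 1 was lower, with a median of -0.07. Gipr, the GIP receptor, was lower by 1.36-fold (-0.44, SE 0.10, limma adjusted p = 0.0103), at 8.10 to 8.35 in C3H and 7.53 to 8.04 in NZO. It no longer passed without NZO replicates 4 and 5, its lowest arrays (-0.31, limma adjusted p = 0.0932), and was -0.07 with the acinar mean as a covariate (limma adjusted p = 0.9999). Glp1r, the receptor of GLP-1 on beta cells, was bright in both strains, at 13.48 ± 0.04 and 13.52 ± 0.11, and differed by 0.04 (95% interval -0.11 to 0.19). Its probe set too is among the brightest, where differences can be compressed. Of 5 measured genes listed for proteins that bind DPP4, with binding in the mouse not tested here, 2 were higher and none lower (median 0.01). Ada, an adenosine deaminase that human DPP4 binds, was 0.37 higher (SE 0.08, limma adjusted p = 0.0112). Without NZO replicates 4 and 5 its difference of 0.32 did not pass, nor did that of 0.24 with the acinar covariate. Fn1, fibronectin, was 1.07 higher (SE 0.31) and 0.55 without those arrays, where it did not pass either. It was 0.34 with the fibroblast and -0.56 with the acinar covariate, and passed in neither fit.

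**Figure D5:**
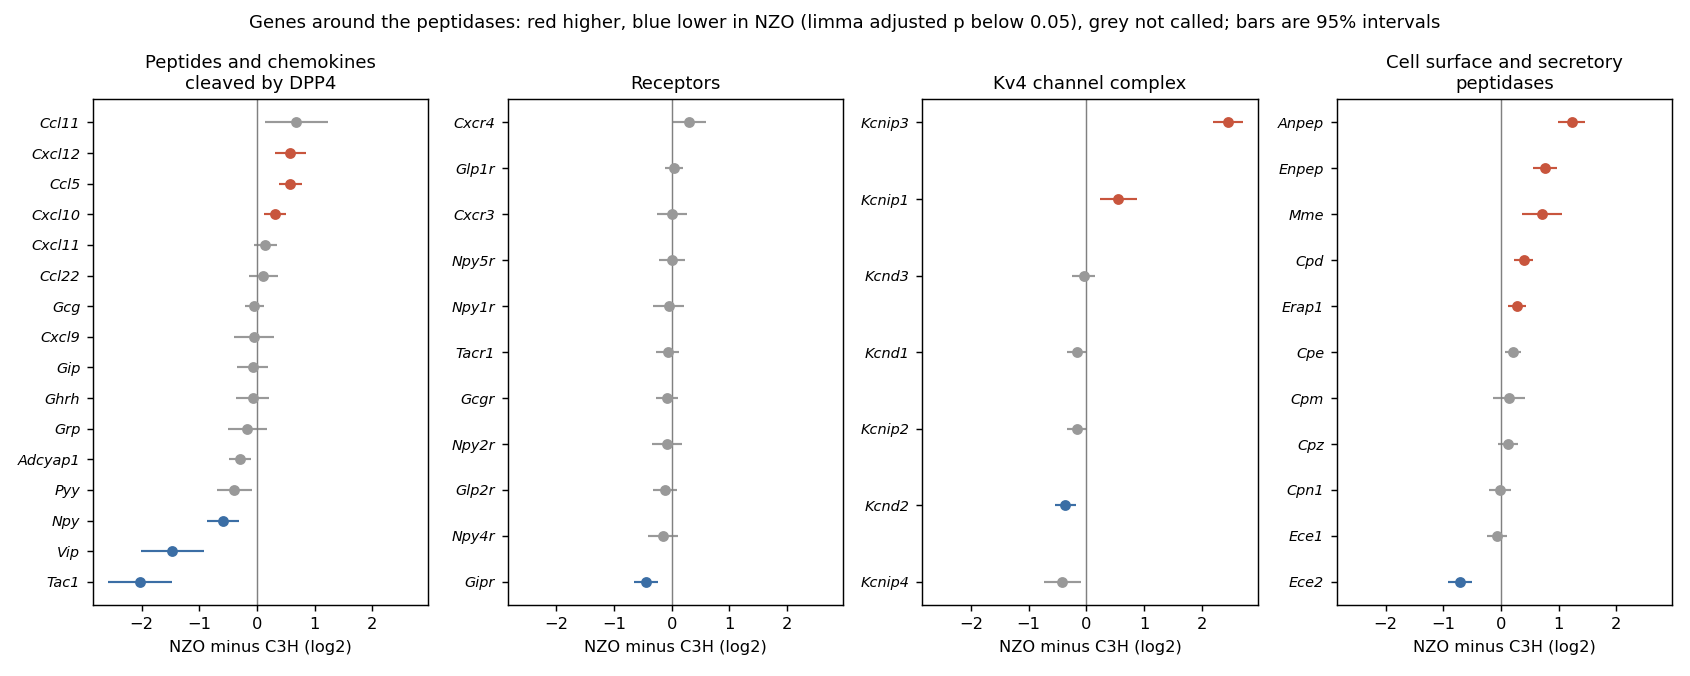
Log2 difference NZO minus C3H (horizontal axes, limma estimate with its 95% interval) of the measured genes for DPP4 substrates, their receptors, the Kv4 channel complex and other cell surface or secretory peptidases, with called genes in red (higher) or blue (lower) and the rest in grey. Kcnip3 (2.45) and Anpep (1.23) stand furthest to the right, and Tac1 (-2.03) and Vip (-1.46) furthest to the left.

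Of 11 measured genes for other peptidases of the cell surface or the secretory pathway, 5 were higher in NZO, 1 was lower and 5 did not pass (median 0.22). Anpep, aminopeptidase N, which takes single residues from N-termini, had values of 9.85, 9.53, 9.72, 9.34 and 9.82 in C3H and 10.98, 11.06, 10.68, 10.76 and 10.89 in NZO. It was 2.34-fold higher, without overlap (1.23, SE 0.11, limma adjusted p = 4.50e-06), and passed with the acinar mean as a covariate (1.32, SE 0.23). Enpep, aminopeptidase A, which cuts angiotensin II, was 1.70-fold higher (0.76, SE 0.10, limma adjusted p = 0.000195) and passed with that covariate too (0.99, SE 0.21).

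Mme, neprilysin, was called higher, but its C3H mean of 5.64 did not reach the lowest 25th percentile of an array (5.65), so its C3H level may not exceed background and no fold is given. Its highest values were 6.82 and 6.69 on NZO replicates 5 and 4. The fitted difference of 0.71 (SE 0.16) did not pass without those arrays (0.44, limma adjusted p = 0.0668) or with the fibroblast mean as a covariate (0.40), and was -0.08 with the acinar mean. Cpd, a carboxypeptidase of the Golgi, was 1.31-fold higher (0.39, SE 0.08). Erap1 (0.28, SE 0.07), an aminopeptidase of the endoplasmic reticulum, was the fifth and was named after its value was seen. Without NZO replicates 4 and 5 it did not pass (0.28, limma adjusted p = 0.110). Ece2, which processes neuropeptide precursors, was lower by 1.63-fold (-0.71, SE 0.09, limma adjusted p = 0.000221). The mean of its probe sets differed by -0.24 and did not pass (limma adjusted p = 0.117).

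In the angiotensin and kinin system, whose peptides PRCP and PREP cut, 2 of 13 measured genes were higher in NZO (Enpep, and Mme with the limit given above), 1 was lower and 10 did not pass, with a median of 0.03. Agt, the angiotensin precursor, was lower by 2.17-fold (-1.12, SE 0.14, limma adjusted p = 0.000147), at 9.58 to 10.27 in C3H and 8.50 to 9.11 in NZO. Of 9 further peptidases that act on or near proline or belong to related families, none was higher and 2 were lower, with a median of -0.03. Prepl, a relative of Prep, was lower by 1.43-fold (-0.52, SE 0.08, limma adjusted p = 0.000787), with 11.30 to 11.47 in C3H and 10.67 to 11.06 in NZO. With the acinar covariate it was -0.31 and did not pass. Lap3, a leucine aminopeptidase, was lower (-0.31, SE 0.09) but did not pass without NZO replicates 4 and 5 (-0.31, limma adjusted p = 0.135). Of 10 measured genes of proline metabolism, 1 was higher, none lower and 9 did not pass, with a median of 0.05. The higher one was Slc36a1, a lysosomal transporter of proline and other small amino acids (0.42, SE 0.09, limma adjusted p = 0.00937).

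Across these 8 lists, 22 of 80 measured genes passed, 13 higher and 9 lower in NZO, with a median log2 difference of -0.01. Of all genes 10.1% passed. Without NZO replicates 4 and 5, 14 of the 80 passed, against 5.54% of all genes. With the acinar mean as a covariate 4 did, against 1.06%, which were Kcnip3, Anpep, Enpep and Tac1. The lists were chosen with earlier results of these data known, so these counts are description only.

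The genes whose profile over the 10 arrays was most like that of a member were found by the root mean square distance between profiles centred on their own means, which includes the strain difference. The 3 nearest to Dpp4 were Nupr1 (0.0954 log2 units), a stress-induced nuclear protein, Bco1 (0.111), which cleaves beta-carotene, and Asah2 (0.112), a ceramidase of the cell surface. They differed by 1.40, 1.46 and 1.31. Anpep ranked 8th (0.151) and was looked up after its value was seen. The nearest to Dpp6 were Glb1 (0.0807), a lysosomal galactosidase, Klb (0.0835), the co-receptor of FGF21, and Apobec2 (0.0883), at -0.51, -0.59 and -0.65. Those nearest to Dpp10 were Cep70 (0.0792), a centrosomal protein, Tubd1 (0.105), a tubulin, and Gria2 (0.115), a glutamate receptor subunit, at -1.03, -1.07 and -0.99. These are descriptions over 10 arrays that share strain. For each of these genes, the members included, C3H replicate 4 was the lowest array of its strain, so likeness within C3H rests partly on that array.

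Other cell types whose RNA islets can hold also differed between the strains. Over all genes, 5.47% passed as higher and 4.61% as lower in NZO. Of 13 macrophage genes 6 were higher and none lower, and the list mean was 7.65 to 7.83 in C3H, 7.74 to 8.27 for NZO replicates 1 to 3, and 8.89 and 9.03 for the other NZO arrays. For duct genes, 4 of 8 were higher and none lower, with list means of 8.40 to 8.69, 8.77 to 9.19 and 9.64 to 9.67 on the same arrays. Of 12 endothelial genes 2 were higher and none lower, with means of 9.04 to 9.31 in C3H and 9.05 to 9.49 in NZO. None of 9 lymphocyte genes passed, with means of 6.05 to 6.56 in C3H and 6.07 to 6.28 in NZO.

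Endocrine markers were lower where they passed. Of 10 beta cell genes 3 were lower and none higher, with list means of 11.2 to 11.4 in C3H and 10.5 to 11.4 in NZO. Of 5 measured alpha cell genes 2 were lower (10.24 to 10.27 against 9.90 to 10.09), and of 6 delta and PP cell genes 5 were lower (10.1 to 10.4 against 9.49 to 9.74), with none higher in either list. The part of these cell types in any member's difference was examined only through the acinar and the fibroblast covariates. The acinar mean itself does not overlap between the strains, so its fit cannot fully separate acinar RNA from strain. The part of the duct, macrophage, endothelial and endocrine cells in any member's difference, that of Dpp4 included, was not tested.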

How the data were processed

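RNA of 10 islet samples, 5 per strain, was measured on Affymetrix mouse gene arrays. The authors deposited log2 expression values from RMA, run in Affymetrix's Expression Console per the submitters' processing notes. Neither the software version nor the library file and build is given in the sources used here. RMA normalizes the arrays to each other and gives no detection call, and the number of arrays limits the precision. The deposited values did not share exactly 1 distribution. C3H replicate 4 had a 25th percentile of 5.85 and a 90th percentile of 9.91. On the other arrays these were 5.65 to 5.74 and 10.02 to 10.11. Array medians lay between 6.93 and 7.05.

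Of 35556 probe sets, 21789 carried exactly 1 symbol, 1621 several and 12146 none in the annotation used, and 21698 matched a gene of GRCm38.p6 by Entrez ID. The brightest probe set per gene left 19938 genes, with no filter. Differences are NZO minus C3H from limma 3.58.1 in R 4.3.3 (lmFit, eBayes), two-sided, Benjamini-Hochberg adjusted over all genes. The script was tested on simulated data. Single genes were also tested by exact permutation of the arrays.

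Replicates are numbered in the order of deposition and pair nothing. The array titles carry numbers that do not repeat between arrays, read here as animal numbers. Whether an array is a pool of animals is not stated in the labels. A p-value covers only the spread among these 10 samples, in which spread of animals or pools and technical spread cannot be separated. The members, the 8 lists around them (91 genes, 80 measured) and the 9 cell type lists were chosen with earlier results of these data known. Genes named are the members, Gcg, Glp1r, Gipr, Npy, Prepl, Kcnd2 and Ada, up to 4 called genes per list with the smallest p, the called neighbours of Dpp4, Fap and Pepd, and the 3 nearest profiles of each called member with a difference of at least 0.5. Other genes named stand for their values only. Alternatives were the mean of all probe sets, brightness filters at the 25th percentile and the median, array centring, repeated quantile normalization, a trended robust prior, array weights, the acinar or fibroblast mean as covariate, and arrays left out.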

Additional observations from a re-analysis of the deposited data

Results flagged for a closer look

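In 108 groups of 5 arrays, those of the 45 named genes and 9 cell type means in each strain, 7 held an array far from its other 4, where chance gives about 1 in 20 groups. None was a member. Npy was 8.47 on C3H replicate 2 and 7.73 to 7.88 on the other C3H arrays. Gria2 was 7.07 on C3H replicate 4, against 7.60 to 7.74. Cxcl12 was 6.20 on C3H replicate 3, against 6.32 to 6.37. Ada was 7.52 on NZO replicate 2, against 7.79 to 7.89, and Apobec2 was 6.17 on NZO replicate 3, against 6.32 to 6.36. The beta cell mean was 11.2 on C3H replicate 2, against 11.4 on the others, and the alpha cell mean was 10.27 on C3H replicate 5, against 10.24 to 10.25.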

How the results depend on the processing

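The number of genes that differed was 2010, and 4125 with array weights, 1259 with the fibroblast mean as a covariate, 1105 without NZO replicates 4 and 5 together and 211 with the acinar mean as a covariate, and 1441 to 2701 with single arrays left out. Among the members 5 passed, 3 of 7 tested above median brightness (where 17.2% of all genes passed), 1 with the acinar covariate, and 4 to 6 with single arrays left out. In the 8 lists 22 of 80 passed, and 14 without NZO replicates 4 and 5 and 4 with the acinar covariate. The shares over all genes were 10.1%, 5.54% and 1.06%. That covariate ended the calls of Dpp6 (-0.70), Dpp10 (-0.97), Pepd (0.48) and Prcp (0.23), and turned Fap (-0.25), Dpp7 (0.36), Dpp9 (0.12), Prep (-0.040), Cxcl12 (-0.0090), Fn1 (-0.56), Mme (-0.083) and Rbms1 (-0.13), none of which then passed. The fibroblast covariate turned Dpp7 (0.091) and ended the call of Prcp (0.26); Fap was 0.11 with it. Prcp also lost its call with array medians subtracted (0.39) and without NZO replicates 4 and 5 (0.33), where Dpp7 turned (0.062), and ranged from 0.33 to 0.46 with single arrays left out. Array weights brought Fap (0.32) and Dpp8 (-0.20) past the threshold, as did the exact permutation test, which is not adjusted over genes (0.32 and -0.17). Fap ranged from 0.22 to 0.38 with single arrays left out. Gcg ranged from -0.067 to 0.0044 with single arrays left out. The cause of these changes was not tested. Dpp4 kept its call in all 20 settings, some of which could not move its difference. Of 693 values of the other named genes under the alternatives, 615 kept direction and side, 73 lost their call and 5 turned. No paired analysis was made, since the strains are separate animals and the design holds no pairs.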
